A study of Mus musculus with 12 samples.

Results

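The 6 genes described here encode signal transducers and activators of transcription (STATs): Stat2, Stat3, Stat4, Stat5a, Stat5b and Stat6. They were taken by gene symbol from a table of 17203 genes measured by RNA sequencing, without use of their values, and each symbol matched 1 row. The cells were primary CD4+ T cells (helper T lymphocytes) of the inbred mouse strain C57BL/6. The 4 conditions had 3 libraries each, 12 in all. Unstimulated cells were freshly isolated and not activated, and the labels of their libraries call them naive CD4 cells. CD3 cells had spent 72 h with anti-CD3, an antibody to the T cell receptor complex, bound to the plate. CD3_CD28 cells had the same plate-bound antibody together with anti-CD28 in solution for 72 h, so that the costimulatory receptor CD28 was also engaged. CD3_CD28_ICOS cells had anti-CD3, anti-CD28 and an antibody to ICOS, an inducible costimulatory receptor, all in solution, for 72 h. Between CD3_CD28 and CD3_CD28_ICOS both the delivery of anti-CD3 and the added antibody change, and the 2 cannot be told apart. Fresh cells were not cultured, so stimulation and 72 h of culture cannot be told apart either. No label gives the age or sex of the mice, or says if replicates are different mice, cultures or repeat preparations. The p-values therefore measure only library-to-library spread, which may be technical.

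STAT proteins wait in the cytoplasm, are phosphorylated by Janus kinases (JAKs) on cytokine receptors, pair up, enter the nucleus and bind DNA. Each family member serves particular receptors in helper T cells: STAT5A and STAT5B serve interleukin-2 and interleukin-7, STAT4 serves interleukin-12 and the TH1 fate, STAT6 serves interleukin-4 and the TH2 fate, and STAT3 serves interleukin-6, interleukin-10 and interleukin-21. STAT2 acts with IRF9 in the response to type I interferon. RNA levels, which were measured here, do not show phosphorylation or activity of these proteins.

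A group of 3 of the genes lies side by side on mouse chromosome 11 (mm10): Stat5b at chr11:100780731-100850724 on the minus strand, Stat5a at chr11:100859351-100885169 on the plus strand and Stat3 at chr11:100885098-100939540 on the minus strand. Stat6 (chr10:127642986-127660957) and Stat2 (chr10:128270559-128292849) lie on the plus strand of chromosome 10, and Stat4 (chr1:51987148-52107189) lies on the plus strand of chromosome 1. All 6 are annotated as protein-coding in GENCODE M21. Stat5a and Stat5b are near copies: 608 of the 50-base stretches in their transcripts are identical, which is 8.21% of those of Stat5a and 11.0% of those of Stat5b. How reads from these stretches were divided is not given in the sources used here, so the split between the 2 genes is uncertain there. The 3′ ends of Stat3 and Stat5a overlap by 72 bases on opposite strands, and Stat6 and Nab2 overlap by 40 bases, also on opposite strands. The non-coding gene Gm28177 shares 21.7% of the 50-base stretches of Stat4 on the same strand, but it did not exceed 0.645 CPM (reads per 1e6 reads assigned to genes) in any library.

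The following 3 promoter windows are shown because Stat2 and Stat4, as described below, were both lower in CD3_CD28 than in CD3 and CD3_CD28_ICOS. For Stat4 the difference from CD3 depended on the scaling between libraries. Stat4 was also higher in CD3_CD28_ICOS than in CD3, and Stat2 was not. The windows were thus chosen with these values known. Each is the 250 bases before a transcription start, from RefSeq (GRCm38.p6, the assembly of mm10), on the plus strand and free of annotated exons. The windows are chr10:128270248-128270497 for Stat2, chr1:51986898-51987147 for the upstream start of Stat4 and chr1:52007990-52008239 for a start inside the Stat4 gene. Capitals mark matches, on either strand, to 5 patterns: GAAA and GAAA 2 bases apart (the core of the interferon-stimulated response element), TTC and GAA 4 bases apart (the spacing STAT6 prefers), TTC and GAA 3 bases apart (the GAS element bound by most STAT dimers), GGAAA (the NFAT core) and TGANTCA (the AP-1 element).
Stat2: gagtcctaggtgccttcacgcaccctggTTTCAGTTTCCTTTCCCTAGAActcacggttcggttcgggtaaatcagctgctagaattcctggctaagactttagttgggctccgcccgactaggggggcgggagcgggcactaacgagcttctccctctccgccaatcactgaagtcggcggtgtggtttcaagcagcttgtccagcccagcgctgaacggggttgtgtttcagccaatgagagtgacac
Stat4 upstream start: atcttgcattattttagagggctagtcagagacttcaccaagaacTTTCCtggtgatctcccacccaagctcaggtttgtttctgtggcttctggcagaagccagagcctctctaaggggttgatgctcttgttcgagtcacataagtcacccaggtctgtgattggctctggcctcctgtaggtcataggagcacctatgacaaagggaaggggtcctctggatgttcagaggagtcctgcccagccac
Stat4 internal start: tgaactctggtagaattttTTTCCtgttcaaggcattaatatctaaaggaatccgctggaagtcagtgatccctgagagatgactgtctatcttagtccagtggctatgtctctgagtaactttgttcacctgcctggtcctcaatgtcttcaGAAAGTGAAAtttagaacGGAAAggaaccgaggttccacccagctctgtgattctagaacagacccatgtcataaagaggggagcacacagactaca

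The run of capitals in the Stat2 window holds TTTCAGTTTC, the response element core read on the other strand, at positions -222 to -213 counted back from the start, and TTCCCTAGAA, with the STAT6 spacing, at -210 to -201. Each is adjoined or overlapped by TTTCC, the NFAT core read on the other strand. The internal Stat4 window holds GAAAGTGAAA at -97 to -88, and the upstream window holds only 1 NFAT core. Over 32851 promoter windows of this length, 2.98% held the response element core, 5.85% the STAT6 spacing, 7.02% the GAS element, 55.6% the NFAT core and 6.75% the AP-1 element. None of the 9 windows of the 6 genes held the GAS or AP-1 element. A match describes letters in a window and is not evidence of binding.

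All 6 genes were well measured, at 44.5 CPM or more in every library, which corresponds to at least 1024 reads for Stat2, the lowest. Depth, estimated from the smallest steps in the values, was 11.4 to 37.5 per library in units of 1e6 reads. T cell markers (8 genes, among them Cd3e and Cd4) summed to 5689 to 6300.5 CPM in fresh cells, 3412 to 3988 with CD3, 3212 to 3696 with CD3_CD28 and 4856 to 5236 with CD3_CD28_ICOS. B cell markers (12 genes) summed to 1046 to 1491, 947 to 1703, 124 to 155 and 966 to 1846 CPM in the same order, and 6 of the 12, Ms4a1, Cd22, Pax5, Blk, Ighd and Cr2, were under 1 CPM in CD3_CD28. Fresh cells alone held sizeable sums of myeloid markers (213 to 572 CPM, against at most 19.4 in stimulated libraries), erythroid and platelet markers (107 to 196, against at most 4.75) and pancreatic acinar markers (395 to 2019, against at most 1.63). CD8 and NK cell markers summed to 65.1 to 100.4, 141 to 187, 48.1 to 102 and 90.7 to 175 CPM. These markers did not move together: in CD3 against fresh cells Eomes and Klrk1 rose and Cd8b1 fell, of 4 tested (69.8% of all tested genes were called). Eomes alone went from a mean of 24.5 to 109 CPM. Klrk1 passed the filter of 10 CPM in 3 libraries only with the CD3 libraries counted. Dendritic cell markers did not exceed 15.3 CPM. The part of these other cells in the STAT results was not tested, and in RNA from mixed cells, fewer cells of a type and less RNA per cell cannot be told apart. In CD3_CD28 replicate 1, 1 ribosomal RNA gene took 11.8% of all reads, which lowers every other CPM value there.

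The family did not move as a block. Stat5a was highest in CD3_CD28, at 404 CPM against 77.7 in fresh cells. Stat4 was highest in CD3_CD28_ICOS, at 421 CPM against 119. Stat3 was higher in every stimulated group than in fresh cells, Stat2 was higher in CD3 and CD3_CD28_ICOS, and Stat6 stayed between 253 and 293 CPM in the 4 group means. CPM is not corrected for gene length, so these values compare groups and not genes.

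**Figure D1:**
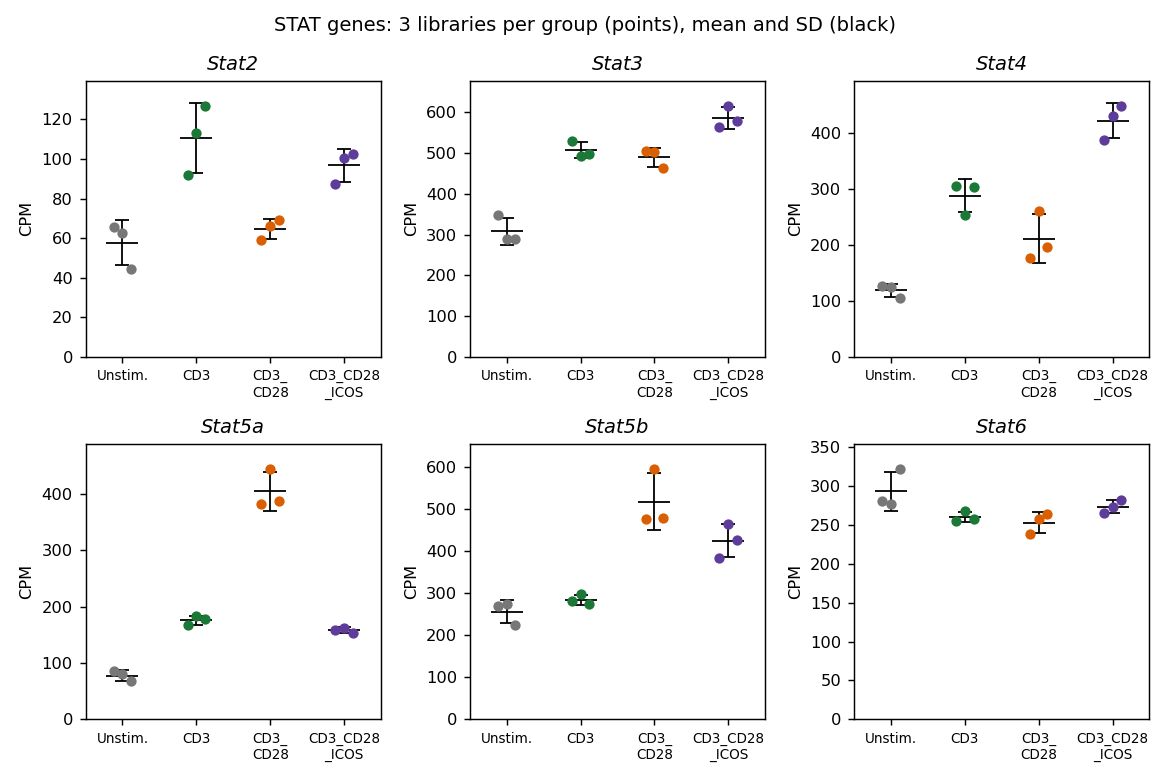
CPM of the 6 STAT genes (y axis, from 0) in the 4 groups (x axis); points are libraries, black bars the mean and SD of 3. The 3 CD3_CD28 libraries lie above all others for Stat5a, and the 3 CD3_CD28_ICOS libraries lie above all others for Stat4, while the Stat6 groups lie close together.

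Stat5a and Stat5b, which transmit the interleukin-2 signal, both had their highest group mean in CD3_CD28. Stat5a measured 85.0, 81.0 and 67.2 CPM in the 3 Unstimulated libraries, 167, 183 and 178 in CD3, 381, 444 and 387 in CD3_CD28 and 159, 163 and 152 in CD3_CD28_ICOS. No 2 groups overlapped. The means were 77.7 ± 9.30 (SD, n = 3), 176 ± 7.90, 404 ± 34.9 and 158 ± 5.21. The log2 fold change of CD3_CD28 over CD3, on log2(CPM + 1), was 1.19 ± 0.10 SE, limma adjusted p = 5.78e-07. CD3_CD28_ICOS was lower than CD3_CD28, with a log2 fold change of -1.35 ± 0.10 SE, limma adjusted p = 8.94e-08. CD3_CD28_ICOS and CD3 were next to each other in the order of levels, and their difference of -0.15 ± 0.10 SE, limma adjusted p = 0.205, did not pass the 0.05 threshold (95% interval -0.36 to 0.05). Against fresh cells Stat5a rose in CD3 (1.17 ± 0.10 SE, limma adjusted p = 1.06e-07), CD3_CD28 (2.37 ± 0.10 SE, limma adjusted p = 1.89e-10) and CD3_CD28_ICOS (1.02 ± 0.10 SE, limma adjusted p = 7.85e-07).

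Stat5b measured 268, 275 and 225 CPM in Unstimulated, 282, 297 and 274 in CD3, 476, 595 and 478 in CD3_CD28 and 384, 464 and 425 in CD3_CD28_ICOS. Fresh and CD3 libraries overlapped, and both lay below all CD3_CD28 and CD3_CD28_ICOS libraries. Unlike Stat5a it was not called in CD3 against fresh cells, where the log2 fold change was 0.15 ± 0.11 SE, limma adjusted p = 0.216 (95% interval -0.08 to 0.39), and -0.02 with median-of-ratios scaling; whether Stat5a and Stat5b differ in this change was not tested. It rose from CD3 to CD3_CD28 by 0.85 ± 0.11 SE, limma adjusted p = 1.95e-05. The step from CD3_CD28 to CD3_CD28_ICOS was -0.28 ± 0.11 SE, limma adjusted p = 0.0362, and this call was lost without CD3_CD28 replicate 2 (log2 fold change -0.17, adjusted p = 0.171), without CD3_CD28_ICOS replicate 1 (0.133) or replicate 3 (0.0734), in a fit of these 2 groups alone (0.0712) and with neither trend nor robust estimation in limma (0.0537). CD3_CD28_ICOS exceeded CD3 by 0.57 ± 0.11 SE, limma adjusted p = 0.000775. Against fresh cells the log2 fold change was 1.01 ± 0.11 SE, limma adjusted p = 1.23e-06 in CD3_CD28 and 0.73 ± 0.11 SE, limma adjusted p = 5.86e-05 in CD3_CD28_ICOS.

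The balance of the pair, Stat5a CPM divided by Stat5b CPM within a library, does not depend on scaling between libraries. It was 0.317, 0.295 and 0.299 in Unstimulated, 0.595, 0.617 and 0.648 in CD3, 0.801, 0.747 and 0.808 in CD3_CD28 and 0.413, 0.351 and 0.359 in CD3_CD28_ICOS. No 2 groups overlapped. The means were 0.303 ± 0.0116 (SD, n = 3), 0.620 ± 0.0266, 0.785 ± 0.0334 and 0.374 ± 0.0337, so Stat5a had the larger relative increase in each stimulated group. The ratio is given as a description, and no test of it was run. Reads from the identical stretches could be divided differently and would change its value.

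Stat4, the transducer of interleukin-12, measured 126, 125 and 106 CPM in Unstimulated, 305, 254 and 304 in CD3, 177, 261 and 196 in CD3_CD28 and 387, 429 and 448 in CD3_CD28_ICOS. All stimulated libraries lay above the fresh ones, all CD3_CD28_ICOS libraries lay above those of CD3 and CD3_CD28, and CD3 overlapped CD3_CD28. The means were 119 ± 11.5 (SD, n = 3), 287 ± 29.3, 211 ± 44.0 and 421 ± 31.0. The log2 fold change over fresh cells was 1.27 ± 0.13 SE, limma adjusted p = 1.3e-06 in CD3, 0.81 ± 0.13 SE, limma adjusted p = 7.78e-05 in CD3_CD28 and 1.82 ± 0.13 SE, limma adjusted p = 6.95e-08 in CD3_CD28_ICOS. CD3_CD28 was lower than CD3 by a log2 fold change of -0.46 ± 0.13 SE, limma adjusted p = 0.00829, a call lost with median-of-ratios scaling (-0.25, adjusted p = 0.0875). CD3_CD28_ICOS was higher than CD3_CD28 (1.01 ± 0.13 SE, limma adjusted p = 1.8e-05) and than CD3 (0.55 ± 0.13 SE, limma adjusted p = 0.00388).

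Stat2, the partner of IRF9, measured 65.7, 62.7 and 44.5 CPM in Unstimulated, 92.0, 113 and 127 in CD3, 59.3, 65.9 and 68.9 in CD3_CD28 and 87.4, 101 and 102 in CD3_CD28_ICOS. Fresh and CD3_CD28 libraries overlapped at the low end, CD3 and CD3_CD28_ICOS overlapped at the high end, and the 2 pairs did not overlap. Stat2 rose over fresh cells in CD3 (0.94 ± 0.15 SE, limma adjusted p = 6.55e-05) and in CD3_CD28_ICOS (0.75 ± 0.15 SE, limma adjusted p = 0.000587). In CD3_CD28 the log2 fold change over fresh cells was 0.18 ± 0.15 SE, limma adjusted p = 0.276 (95% interval -0.14 to 0.50). CD3_CD28 was lower than CD3 (-0.75 ± 0.15 SE, limma adjusted p = 0.0006), and CD3_CD28_ICOS was higher than CD3_CD28 (0.57 ± 0.15 SE, limma adjusted p = 0.0039). CD3_CD28_ICOS and CD3 differed by -0.18 ± 0.15 SE, limma adjusted p = 0.332 (95% interval -0.50 to 0.13). The B cell marker sum was also low in CD3_CD28. All 12 of its 12 genes fell from CD3 to CD3_CD28 (64.4% of tested genes called, 45.7% lower). Of these, 1, Blk, passed the filter on low values only with the CD3 libraries counted. All 12 rose from CD3_CD28 to CD3_CD28_ICOS (63% called, 38.5% higher). In fresh cells, where Stat2 and Stat4 were also low, this sum was 1046 to 1491 CPM, against 124 to 155 in CD3_CD28. Its part in the Stat2 and Stat4 results was not tested.

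Stat3, which transmits interleukin-6 and interleukin-21 signals, measured 347, 288 and 288 CPM in Unstimulated, 530.4, 493 and 498 in CD3, 506, 502 and 463 in CD3_CD28 and 564, 615 and 579 in CD3_CD28_ICOS. Every stimulated library lay above every fresh one, and every CD3_CD28_ICOS library lay above those of the other groups. The log2 fold change over fresh cells was 0.72 ± 0.09 SE, limma adjusted p = 4.25e-06 in CD3, 0.67 ± 0.09 SE, limma adjusted p = 6.66e-06 in CD3_CD28 and 0.93 ± 0.09 SE, limma adjusted p = 5.97e-07 in CD3_CD28_ICOS. CD3_CD28 and CD3 overlapped, with a difference of -0.05 ± 0.09 SE, limma adjusted p = 0.625 (95% interval -0.23 to 0.13), which was 0.16 with median-of-ratios scaling and 0.01 without the ribosomal RNA gene. CD3_CD28_ICOS exceeded CD3_CD28 by 0.26 ± 0.09 SE, limma adjusted p = 0.0173. That call was lost with quantile normalization (adjusted p = 0.156), median-of-ratios scaling (0.317), without the ribosomal RNA gene (0.0594), without CD3_CD28 replicate 3 (0.0681) and without CD3_CD28_ICOS replicate 2 (0.0574). The difference from CD3 was 0.21 ± 0.09 SE, limma adjusted p = 0.0589, and it passed with median-of-ratios scaling (0.28, adjusted p = 0.0269), in a fit of these 2 groups alone (0.0378), without Unstimulated replicate 1 (0.0359) and without both Unstimulated replicate 3 and CD3_CD28 replicate 1 (0.0498).

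Stat6, the transducer of interleukin-4, had the smallest ratio of highest to lowest group mean among the 6 genes. It measured 281, 276 and 322 CPM in Unstimulated, 255, 267 and 258 in CD3, 238, 257 and 263 in CD3_CD28 and 265, 273 and 282 in CD3_CD28_ICOS. Neighbouring groups in the order of levels overlapped throughout, and Unstimulated replicate 3 was the highest library. All CD3 and CD3_CD28 libraries lay below the fresh ones, and all CD3_CD28_ICOS libraries lay above those of CD3_CD28. The single call was CD3_CD28 below fresh cells, with a log2 fold change of -0.21 ± 0.08 SE, limma adjusted p = 0.0271. It was lost without Unstimulated replicate 3 (adjusted p = 0.12), without CD3_CD28 replicate 1 (0.0793), without the ribosomal RNA gene (0.0599), with median-of-ratios scaling (0.0776) and in a fit of these 2 groups alone (0.0672). The 95% interval was -0.34 to 0.00 for CD3 and -0.27 to 0.07 for CD3_CD28_ICOS, each against fresh cells. With median-of-ratios scaling both of these passed the threshold as lower, at limma adjusted p = 0.00231 and 0.0462. Both also passed with quantile normalization (0.0251 and 0.0422), and CD3 passed without the ribosomal RNA gene (0.042). Between stimulated groups the log2 fold changes were -0.04 ± 0.08 SE, limma adjusted p = 0.651 for CD3_CD28 over CD3, 0.11 ± 0.08 SE, limma adjusted p = 0.225 for CD3_CD28_ICOS over CD3_CD28 and 0.07 ± 0.08 SE, limma adjusted p = 0.491 for CD3_CD28_ICOS over CD3, and the first of these changed sign with quantile normalization (0.03), median-of-ratios scaling (0.17) and without the ribosomal RNA gene (0.02), the second with quantile normalization (-0.01) and median-of-ratios scaling (-0.03).

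Set against all 9826 genes tested, between 2 and 5 of the 6 STAT genes were called per comparison, beside 47.7 to 75.2% of tested genes, so the counts alone do not set the family apart. Against fresh cells, CD3 had 4 of the 6 higher and 0 lower (69.8% of tested genes were called, 43.6% higher and 26.3% lower), CD3_CD28 had 4 higher and 1 lower (75.2% called, 36.1% higher and 39.1% lower), and CD3_CD28_ICOS had 5 higher and 0 lower (59.4% called, 35.6% higher and 23.7% lower). These 3 comparisons share the fresh libraries. CD3_CD28 against CD3 had 2 higher, Stat5a and Stat5b, and 2 lower, Stat2 and Stat4 (64.4% called, 18.7% higher and 45.7% lower). CD3_CD28_ICOS against CD3_CD28 had 3 higher, Stat2, Stat3 and Stat4, and 2 lower, Stat5a and Stat5b (63% called, 38.5% higher and 24.5% lower). CD3_CD28_ICOS against CD3 had 2 higher, Stat4 and Stat5b, and 0 lower (47.7% called, 18.9% higher and 28.7% lower). Groups without overlapping libraries were seen for 5 of the 6 genes in CD3 against Unstimulated (76.9% of tested genes), 5 in CD3_CD28 against Unstimulated (76.7%), 5 in CD3_CD28_ICOS against Unstimulated (64.5%), 3 in CD3_CD28 against CD3 (72.4%), 6 in CD3_CD28_ICOS against CD3_CD28 (64.8%) and 4 in CD3_CD28_ICOS against CD3 (58.5%). The median log2 fold change of the 6 genes, in the same order, was 0.83, 0.74, 0.84, -0.05, 0.19 and 0.14, beside 0.18, -0.04, 0.08, -0.24, 0.13 and -0.07 over all tested genes. Quantile normalization moved the median of all genes by -0.25, -0.04, -0.16, 0.21, -0.12 and 0.08, and median-of-ratios scaling moved it by -0.17, 0.04, -0.10, 0.21, -0.14 and 0.06. The split of all calls moved with the scaling: for CD3 against Unstimulated it was 4280 higher and 2582 lower here, 3119 and 3766 with quantile normalization and 3544 and 3466 with median-of-ratios scaling. For CD3_CD28_ICOS against Unstimulated it was 3500 and 2332, then 2735 and 3487, and 3098 and 3199. For CD3_CD28 against CD3 it was 1837 and 4487, then 2882 and 3109, and 2909 and 3100. For CD3_CD28_ICOS against CD3_CD28 it was 3787 and 2403, then 3224 and 3115, and 3083 and 3265, and against CD3 it was 1859 and 2824, then 2591 and 2542 with quantile normalization. Any difference among the 3 stimulated groups was called by limma's F test for 5 of the 6, all but Stat6 (80.7% of tested genes were called). Stat3 lost this call with quantile normalization, without CD3_CD28_ICOS replicate 2 and without CD3_CD28_ICOS replicate 3, which left 4 of the 6.

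**Figure D2:**
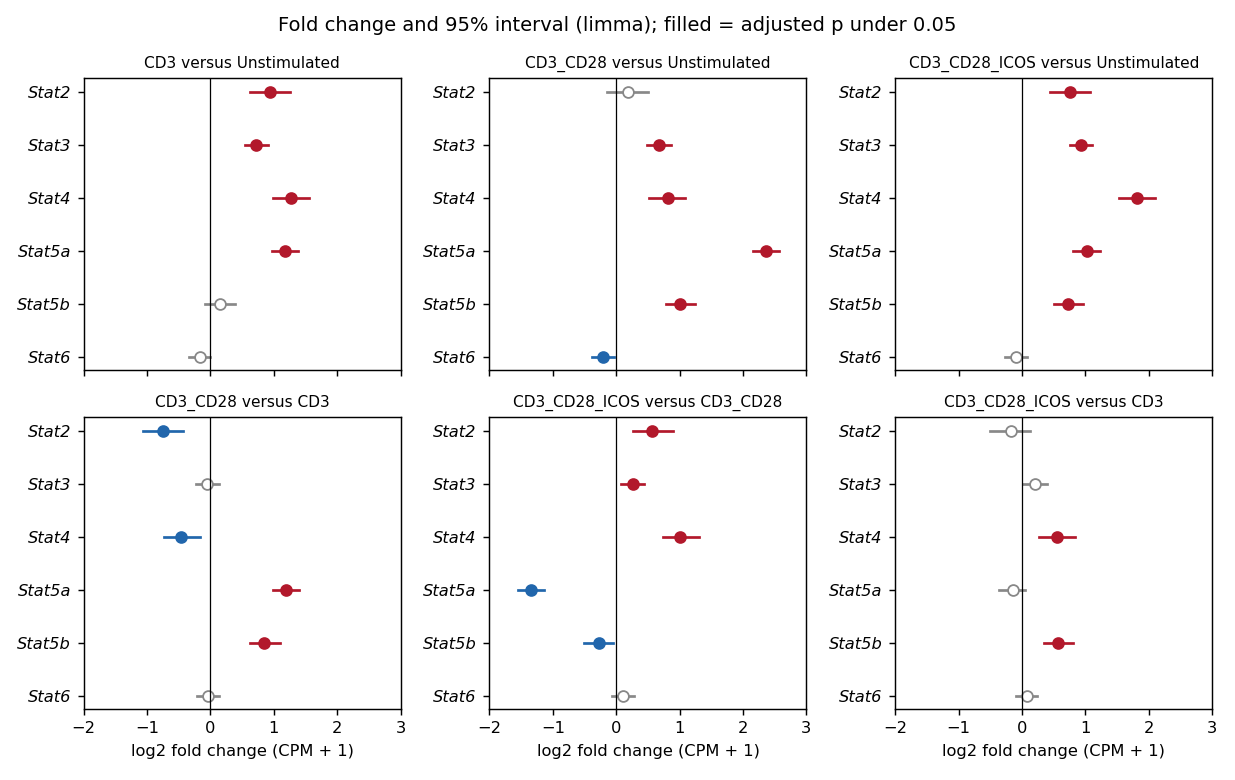
log2 fold change on log2(CPM + 1) (x axis) of each STAT gene (y axis) in the 6 comparisons, 1 panel each; circles are limma estimates, lines 95% intervals, filled red higher and filled blue lower at adjusted p under 0.05. Stat5a and Stat5b lie to the right and Stat2 and Stat4 to the left in CD3_CD28 versus CD3, and these sides are exchanged in CD3_CD28_ICOS versus CD3_CD28.

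The authors' deposited table made fewer calls over its 17144 genes with a p-value. Against fresh cells the authors' deposited table has a false discovery rate under 0.05 for Stat2, Stat3, Stat4 and Stat5a in CD3 (26.1% of genes called), for Stat3, Stat4, Stat5a and Stat5b in CD3_CD28 (32.7%) and for all but Stat6 in CD3_CD28_ICOS (18.1%). Between stimulated groups the authors' deposited table calls Stat2, Stat4, Stat5a and Stat5b in CD3_CD28 against CD3 (17% called), Stat4 and Stat5a in CD3_CD28_ICOS against CD3_CD28 (19.5%), and Stat4 and Stat5b in CD3_CD28_ICOS against CD3 (8.66%). The Stat4 rate in CD3_CD28 against CD3 is 0.0491 in the authors' deposited table. The total-count column of that table equals the sum of the CPM values, so whether its test was run on read counts or on CPM is not known, and its rates carry that limit.

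Divided by the length of the gene's exons, the levels can be compared between genes. CPM per kb summed over the 6 genes was 196 ± 7.93 (SD, n = 3) in Unstimulated, 281 ± 4.49 in CD3, 324 ± 30.6 in CD3_CD28 and 348 ± 19.0 in CD3_CD28_ICOS. In fresh cells Stat6 was the most abundant, at 66.5 ± 5.73 CPM per kb, and held 34.0% ± 4.22 of the sum. Its share was 21.0% ± 0.812 in CD3, 17.8% ± 1.48 in CD3_CD28 and 17.9% ± 0.668 in CD3_CD28_ICOS. Stat4 held 15.6% ± 1.01, 26.4% ± 2.31, 16.7% ± 1.86 and 31.3% ± 1.04 in the order of groups, and was the most abundant in CD3_CD28_ICOS at 109 ± 8.02 CPM per kb. Stat5a held 5.54% ± 0.460, 8.78% ± 0.488, 17.5% ± 0.184 and 6.38% ± 0.413, with no overlap between CD3_CD28 and any other group. Stat2 was the least abundant in every group, at 9.73 ± 1.94 to 18.7 ± 2.95 CPM per kb. The order between genes depends on the length used. With the longest principal transcript in place of all exons, chosen after seeing the data, 4 of the 6 genes kept their place in Unstimulated, 3 in CD3, 2 in CD3_CD28 and 3 in CD3_CD28_ICOS. Stat3, whose annotated exons span 9.53 kb, moved to the first place in CD3 and CD3_CD28, and in CD3_CD28 the order changed from Stat5b, Stat6, Stat5a, Stat4, Stat3, Stat2 to Stat3, Stat5a, Stat5b, Stat4, Stat6, Stat2. Stat6 in fresh cells and Stat4 in CD3_CD28_ICOS stayed first, and Stat2 stayed last in all 4 groups.

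**Figure D3:**
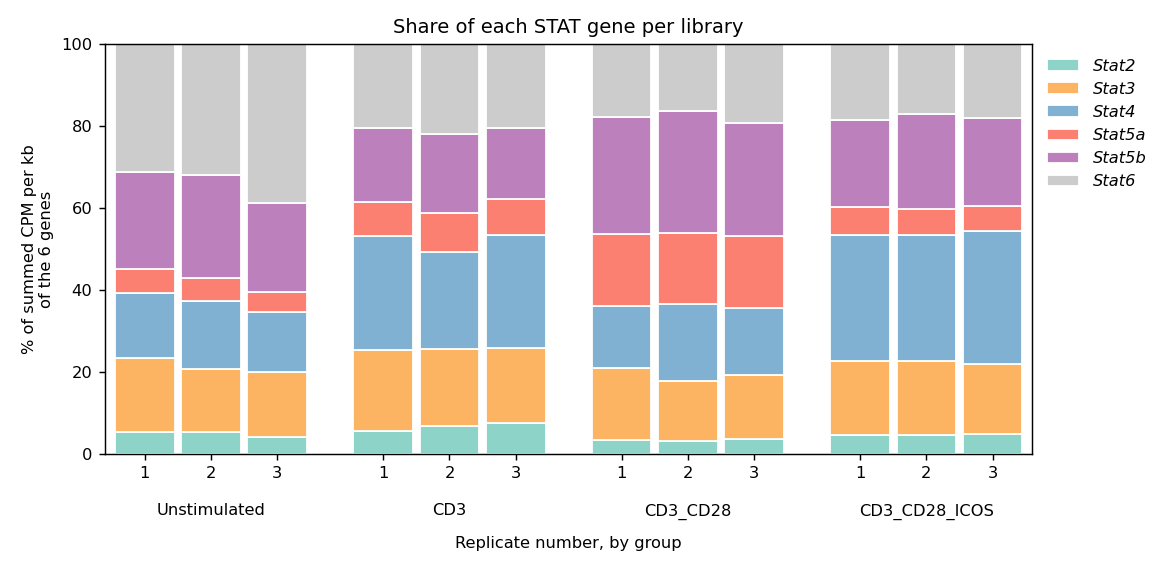
Share of each STAT gene in the summed CPM per kb of the 6 (y axis, percent) in each library (x axis, replicate numbers by group). The Stat5a band is widest in the 3 CD3_CD28 libraries, the Stat4 band in the 3 CD3_CD28_ICOS libraries and the Stat6 band in the 3 Unstimulated libraries.

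Of the JAK kinases that phosphorylate STATs, 2 rose and 1 fell of 4 tested in CD3 against fresh cells (69.8% of all tested genes were called there), 1 rose and 2 fell of 4 tested from CD3 to CD3_CD28 (64.4%) and 3 rose and 0 fell of 4 tested from CD3_CD28 to CD3_CD28_ICOS (63%). These counts lie near the shares over all genes and do not set the kinases apart. Jak1, which serves most of these receptors, measured 1663, 1649 and 1674 CPM in Unstimulated, 677, 595 and 627 in CD3, 439, 552 and 512 in CD3_CD28 and 1162, 1156 and 1255 in CD3_CD28_ICOS. It fell in each stimulated group against fresh cells and was higher in CD3_CD28_ICOS than in CD3_CD28 (1.25 ± 0.09 SE, limma adjusted p = 7.24e-08). Jak3, which pairs with the common gamma chain, rose from 91.6 ± 16.4 CPM (SD, n = 3) to 297 ± 13.6, 244 ± 26.9 and 319 ± 59.5, and Jak2 rose from 182 ± 10.4 to 448 ± 23.0, 536 ± 55.5 and 464 ± 44.8. Tyk2, which serves interferon and interleukin-12 receptors, was lower in CD3_CD28 than in CD3 (-0.50 ± 0.09 SE, limma adjusted p = 0.000332) and higher in CD3_CD28_ICOS than in CD3_CD28 (0.65 ± 0.09 SE, limma adjusted p = 3.03e-05), as Stat2 was.

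**Figure D4:**
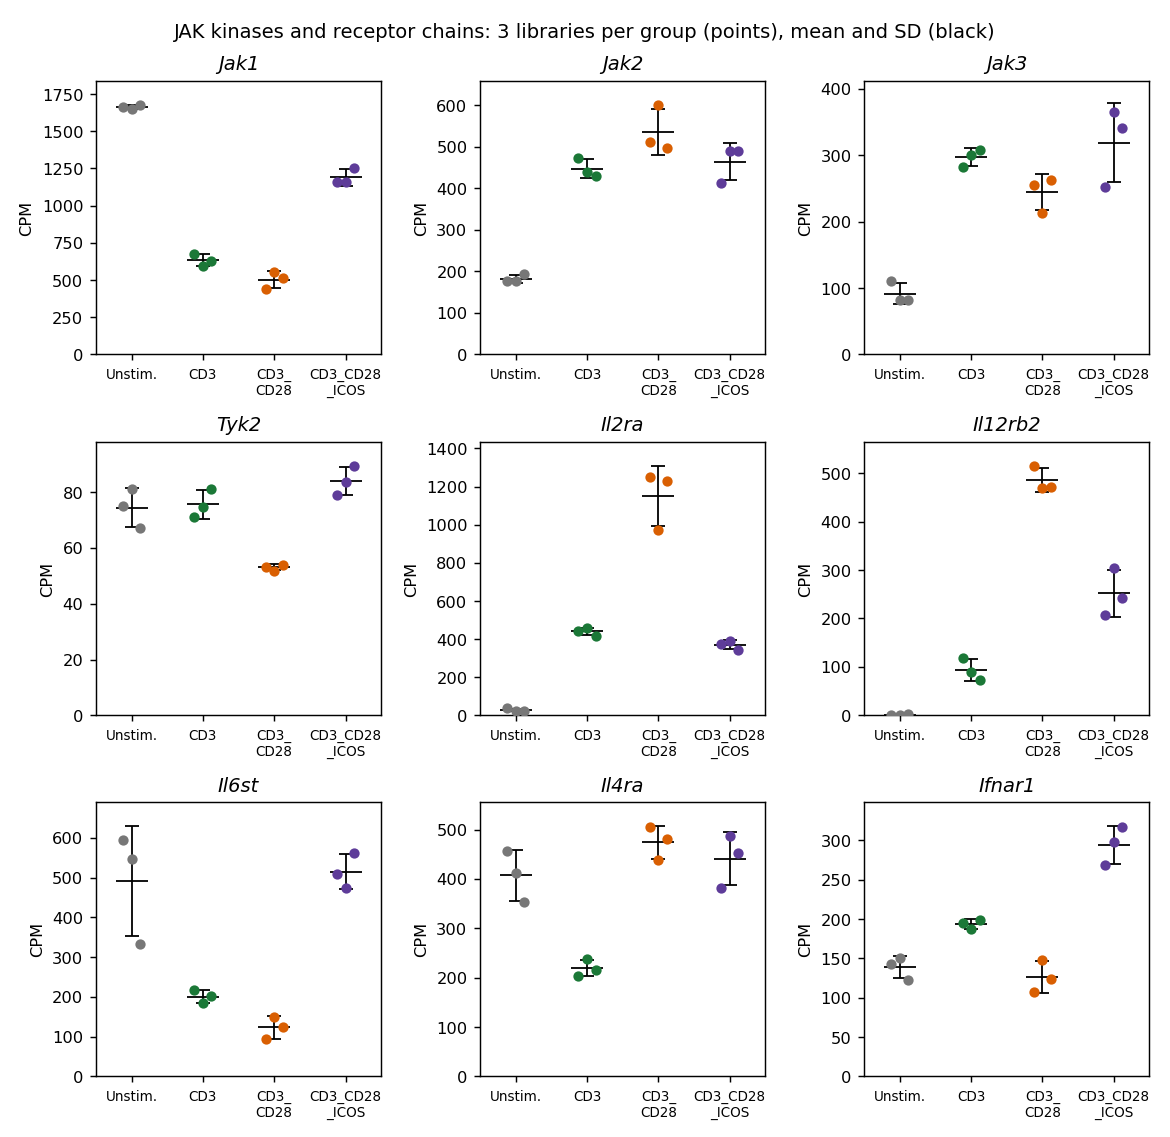
CPM of the 4 JAK kinases and of 5 receptor chains (y axis, from 0) in the 4 groups (x axis); points are libraries, black bars the mean and SD of 3. Il2ra and Il12rb2 are highest in CD3_CD28, Jak1 is highest in Unstimulated, and Ifnar1 is highest in CD3_CD28_ICOS.

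Of the receptor genes for STAT5 cytokines, 3 rose and 2 fell of 6 tested from CD3 to CD3_CD28 and 2 rose and 3 fell of 6 tested from CD3_CD28 to CD3_CD28_ICOS, where 64.4% and 63% of all tested genes were called. Of those for STAT3 cytokines, 3 rose and 3 fell of 6 tested and 3 rose and 2 fell of 6 tested in these steps. Il2ra, the high-affinity interleukin-2 receptor chain, measured 28.4 ± 7.07 CPM (SD, n = 3) in Unstimulated, 440.3 ± 20.2 in CD3, 1151 ± 156 in CD3_CD28 and 371 ± 24.1 in CD3_CD28_ICOS. Like Stat5a it rose from CD3 to CD3_CD28 (1.38 ± 0.14 SE, limma adjusted p = 4.53e-06) and fell from CD3_CD28 to CD3_CD28_ICOS (-1.62 ± 0.14 SE, limma adjusted p = 5.7e-07). Il2rb, the signalling chain, was 487 ± 71.4 in CD3, 1208 ± 52.0 in CD3_CD28 and 1142 ± 306 in CD3_CD28_ICOS, and its difference between the last 2 was -0.11 ± 0.20 SE, limma adjusted p = 0.649. Il2rg, the common gamma chain, and Il7r, the interleukin-7 receptor chain, fell against fresh cells in all 3 stimulated groups. Il12rb2, the inducible chain of the interleukin-12 receptor upstream of STAT4, was 1.59 ± 0.446, 93.7 ± 22.1, 485 ± 24.7 and 252 ± 48.9 CPM, so its highest group was CD3_CD28 while that of Stat4 was CD3_CD28_ICOS. Il6ra, the interleukin-6 receptor chain upstream of STAT3, fell from 498 ± 40.5 CPM to 50.1 ± 2.77, 37.9 ± 3.32 and 99.8 ± 10.6. Il6st, its signalling partner, fell in CD3 (-1.25 ± 0.20 SE, limma adjusted p = 0.000144) and CD3_CD28 (-1.97 ± 0.20 SE, limma adjusted p = 2.07e-06), and in CD3_CD28_ICOS its log2 fold change over fresh cells was 0.11 ± 0.20 SE, limma adjusted p = 0.665. Il4ra, upstream of STAT6, was lower in CD3 than in fresh cells (-0.88 ± 0.11 SE, limma adjusted p = 8.6e-06) and higher in CD3_CD28 than in CD3 (1.11 ± 0.11 SE, limma adjusted p = 3.38e-06). Ifnar1, upstream of STAT2, fell from CD3 to CD3_CD28 (-0.63 ± 0.11 SE, limma adjusted p = 0.000358) and rose from CD3_CD28 to CD3_CD28_ICOS (1.22 ± 0.11 SE, limma adjusted p = 8.05e-07).

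Most ligand genes were scarce. Of 21 cytokine genes listed, 2 passed the filter of 10 CPM in 3 libraries: Lif and Osm, both ligands of STAT3-coupled receptors. Lif measured 0.266, 0.0364 and 1.17 CPM in Unstimulated, 8.42, 15.8 and 9.98 in CD3, 183, 117 and 151 in CD3_CD28 and 11.5, 10.2 and 8.68 in CD3_CD28_ICOS. Osm was 15.0 ± 1.72 CPM in CD3 and 55.6 ± 6.36 in CD3_CD28. With no filter, 11 of the listed genes were called in CD3_CD28 against CD3 in place of 2. More genes were tested then. Over all genes, 6324 were called in this comparison in the fit reported and at most 8295 under any alternative. Il21, the ligand of a STAT3-coupled receptor, measured 17.9, 1.39 and 4.88 CPM in the CD3_CD28 libraries, and Il4, the STAT6 ligand, 7.12, 0.448 and 2.12. Il13 and Il5, TH2 cytokine genes named after their values were seen, measured 29.4, 3.76 and 11.5 and 12.1, 1.21 and 3.57 CPM there. These 4 genes did not exceed 1.12 CPM in the other 9 libraries, and in CD3_CD28 replicate 1 was the highest for each. Il2 reached 1.61, 3.48 and 3.33 CPM in the CD3_CD28 libraries and Ifng did not exceed 2.42 CPM in any library.

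Feedback inhibitors and phosphatases of the pathway numbered 16 tested genes, of which 7 rose and 4 fell from CD3 to CD3_CD28 and 4 rose and 8 fell from CD3_CD28 to CD3_CD28_ICOS, again beside 64.4% and 63% of all tested genes. Cish, a SOCS family inhibitor induced through STAT5, measured 22.7, 14.7 and 21.3 CPM in Unstimulated, 39.7, 65.1 and 40.2 in CD3, 421, 468 and 434 in CD3_CD28 and 52.1, 81.0 and 59.6 in CD3_CD28_ICOS. The 3 CD3_CD28 libraries lay far above the other 9. Socs1 was 15.8 ± 4.14, 23.5 ± 6.46, 53.3 ± 6.52 and 30.4 ± 2.51 CPM (SD, n = 3). Socs3, an inhibitor of interleukin-6 signals, measured 103, 54.8 and 66.1 CPM in Unstimulated and 64.5, 54.7 and 64.1 in CD3_CD28, which overlap, and was 23.0 ± 7.11 in CD3 and 32.3 ± 7.75 in CD3_CD28_ICOS.

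Genes listed as targets of STAT5 mostly had the direction of Stat5a in the 2 comparisons of CD3_CD28 with another stimulated group. Of the 12 tested, 11 rose and 0 fell from CD3 to CD3_CD28. Their median log2 fold change was 1.98 beside -0.24 over all genes. From CD3_CD28 to CD3_CD28_ICOS 0 rose and 12 fell, with a median of -1.65 beside 0.13. Of all tested genes, 64.4% were called in the first step (18.7% higher) and 63% in the second (24.5% lower). In CD3_CD28_ICOS against CD3, 3 rose and 2 fell (47.7% of tested genes called), and Stat5a was not called. Both of the first comparisons use the CD3_CD28 libraries, and the list was chosen with earlier results of these data known. Il2ra, Cish, Socs2, Lif and Osm are also in the receptor, inhibitor or ligand lists above. The counts are thus a description and not a test of STAT5. Bcl2l1, which encodes the survival protein BCL-XL, was 19.0 ± 0.712 CPM (SD, n = 3) in Unstimulated, 34.8 ± 4.37 in CD3, 208 ± 23.2 in CD3_CD28 and 50.3 ± 8.59 in CD3_CD28_ICOS. Pim1, a survival kinase, was 145 ± 39.3, 96.0 ± 9.13, 383 ± 39.3 and 119 ± 5.67 CPM. Against fresh cells the list was mixed in CD3, with 7 higher and 4 lower, and in CD3_CD28_ICOS, with 6 higher and 4 lower. In CD3_CD28 all 12 were higher. Of all tested genes, 43.6% were higher and 26.3% lower in CD3, 35.6% and 23.7% in CD3_CD28_ICOS, and 36.1% and 39.1% in CD3_CD28.

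**Figure D5:**
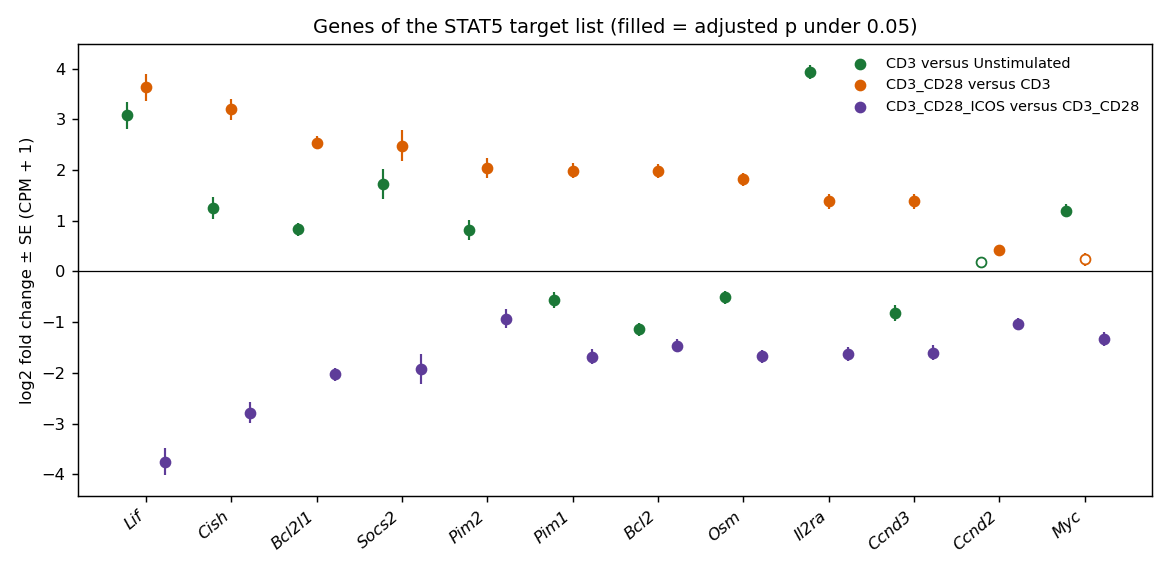
log2 fold change on log2(CPM + 1) with SE (y axis) of the 12 STAT5 target genes (x axis) in 3 comparisons (colours); filled circles have an adjusted p under 0.05. CD3_CD28 versus CD3 lies above 0 and CD3_CD28_ICOS versus CD3_CD28 below 0 for each gene.

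Bcl6, a repressor listed with the STAT3 targets, went the other way. It measured 37.1, 28.0 and 28.7 CPM in Unstimulated, 64.5, 27.9 and 41.1 in CD3, 5.06, 6.58 and 4.94 in CD3_CD28 and 108, 87.5 and 117 in CD3_CD28_ICOS. CD3_CD28 was the lowest group and CD3_CD28_ICOS the highest, with a log2 fold change between them of 4.01 ± 0.24 SE, limma adjusted p = 4.99e-08. B cells also express Bcl6, and all 12 B cell markers rose in this step, their sum going from 124 to 155 CPM to 966 to 1846 CPM. Their part in the Bcl6 result was not tested. Of the 9 tested STAT3 targets, 5 rose and 2 fell from CD3 to CD3_CD28, and 2 rose and 3 fell from CD3_CD28 to CD3_CD28_ICOS, beside 64.4% and 63% of all tested genes.

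Of the 13 tested genes listed as targets of STAT2 and IRF9, 2 rose and 7 fell in CD3 against fresh cells, while Stat2 itself rose there. Of the 7, Ifit3, Oasl2, Rtp4 and Cmpk2 passed the filter on low values only with the fresh libraries counted, which favours a lower value in CD3; setting them aside leaves 2 that rose and 3 that fell (69.8% of all tested genes were called). From CD3_CD28 to CD3_CD28_ICOS 8 rose and 2 fell, with a median log2 fold change of 1.01 beside 0.13 over all genes, of which 63% were called. In the same step 12 of 12 B cell markers rose, with a median of 4.59, and 7 of 8 T cell markers rose, with a median of 0.64. The part of these in the interferon targets was not tested. From CD3 to CD3_CD28 3 rose and 5 fell (64.4% of all tested genes). Irf9 measured 114, 108 and 94.9 CPM in Unstimulated, 69.9, 88.7 and 84.4 in CD3, 40.7, 69.8 and 64.4 in CD3_CD28 and 106, 115 and 126 in CD3_CD28_ICOS, and like Stat2 it was lower in CD3_CD28 than in CD3 (-0.50 ± 0.17 SE, limma adjusted p = 0.0202) and higher in CD3_CD28_ICOS than in CD3_CD28 (1.01 ± 0.17 SE, limma adjusted p = 0.000187). With the filter on low values removed, the CD3 comparison called 14 of the list's genes in place of 9. Over all genes, 6862 were called in that comparison in the fit reported and at most 10243 under any alternative.

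The lists for STAT4 and STAT6 had 6 tested genes each. Tbx21, which encodes the TH1 factor T-bet and is listed with STAT4, was 3.54 ± 1.74 CPM (SD, n = 3) in Unstimulated, 59.9 ± 2.78 in CD3, 21.7 ± 3.67 in CD3_CD28 and 40.3 ± 3.96 in CD3_CD28_ICOS, so CD3_CD28 was the lowest stimulated group for it as for Stat4. Their highest groups differed. From CD3 to CD3_CD28_ICOS Tbx21 was lower (-0.56 ± 0.20 SE, limma adjusted p = 0.0365), while Stat4 was higher (0.55 ± 0.13 SE, limma adjusted p = 0.00388). Of the STAT4 list, 3 rose and 3 fell from CD3 to CD3_CD28 (64.4% of all tested genes called), and 3 rose and 3 fell from CD3_CD28 to CD3_CD28_ICOS (63%). Of these, Gadd45g passed the filter only with the CD3_CD28 libraries counted and, in the first step, Il18rap only with those of CD3; setting them aside leaves 2 and 2, then 3 and 2. Gata3, which encodes the TH2 factor and is listed with STAT6, was 65.6 ± 4.65, 49.8 ± 4.84, 172 ± 30.1 and 176 ± 48.1 CPM. Of the STAT6 list, 5 rose and 0 fell from CD3 to CD3_CD28 (64.4% of all tested genes called, 18.7% higher), while Stat6 itself was not called there. Il24, 1 of the 5, passed the filter only through CD3_CD28 and so had to be higher, which leaves 4. With no filter on low values 8 of the listed genes were called. Over all genes, 6324 were called in this comparison in the fit reported and at most 8295 under any alternative.

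The genes whose log2(CPM + 1) most resembled each STAT gene over the 12 libraries are given as a description, by Pearson's r. Points within a group are not independent of the group, and the libraries share depth and scaling. They were Atp6v1a (r = 0.995), Zscan12 (r = 0.995), Chchd10 (r = 0.992) for Stat5a, Usp30 (r = 0.978), Dip2b (r = 0.965), Sirt2 (r = 0.957) for Stat5b, Zfp141 (r = 0.989), Ptpn22 (r = 0.984), Wdfy1 (r = 0.983) for Stat4, Lpin2 (r = 0.984), Slc35f5 (r = 0.981), Spcs3 (r = 0.98) for Stat3 and Cbx6 (r = 0.966), Dalrd3 (r = 0.965), Tmco6 (r = 0.964) for Stat2. Those of Stat6 were Zfp36 (r = 0.946), Ep300 (r = 0.945), Fos (r = 0.945). Zfp36 and Fos, early-response genes, measured 312, 259 and 1299.6 and 70.7, 30.9 and 1275 CPM in the Unstimulated libraries, so that replicate 3, also the highest for Stat6, stands apart. Among the STAT genes, Stat3 and Stat4 had r = 0.924 and Stat5a and Stat5b r = 0.824.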

How the data were processed

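The authors deposited CPM values of 12 libraries (reads of a gene per 1e6 over the 17203 genes), and every cell carries an added 1e-04, as found from the values. The authors used Partek version 10, DESeq2 and mm10, per the submitters' processing notes; aligner, annotation, counting rule and strand setting: not given in the sources used here. The authors' deposited table of comparisons has log2 ratios, p-values and false discovery rates (59 genes lack p-values). Its summed signal per gene, deposited by the authors under a name for total counts, equals the sum of the CPM values. Groups and replicate numbers came from the labels, and 0 columns stayed unmatched. Depth was read from the smallest step in values up to 1.2 CPM, but too few were whole multiples (within 0.02) to recover reads, so no test on counts was run. The filter kept 9826 genes that reached 10 CPM in 3 or more libraries. The log2(CPM + 1) values were fitted in limma (version 3.58.1, R 4.3.3): group means were estimated from the 12 libraries jointly, with robust, trended variances. The F test used the 9 stimulated libraries. Two-sided p-values were Benjamini-Hochberg adjusted over all tested genes of a comparison, with a threshold of 0.05. The procedure was run on simulated data with independent normal noise, in which few genes changed. That run does not check how the fit behaves in these data, where many genes were called and scaling moved the median. Lengths, coordinates and identical 50-base stretches came from GENCODE M21, and promoters from RefSeq, which held all 6 genes. Named genes were the 6 members, a fixed set of pathway genes, up to 4 called genes with the largest change per list plus 1 in the other direction, and the 3 genes most like each member. The members and lists were chosen with earlier results of these data known. The alternatives were quantile normalization, median-of-ratios scaling, other pseudocounts and filters, removal of the ribosomal RNA gene, a replicate block, fits of the compared groups alone, fits with plain variances, and leaving out libraries.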

Additional observations from a re-analysis of the deposited data

How the results depend on the processing

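Under 23 alternatives the 6 STAT genes gave 828 fold changes, of which 794 kept their direction and side of the threshold, 17 lost and 9 gained a call, and 8 changed sign, each of them not called in the fit reported. The sign changes were Stat6 in CD3_CD28 against CD3 with quantile normalization (0.03), median-of-ratios scaling (0.17) and without the ribosomal RNA gene (0.02), Stat6 in CD3_CD28_ICOS against CD3_CD28 with quantile normalization (-0.01) and median-of-ratios scaling (-0.03), Stat5b in CD3 against Unstimulated with median-of-ratios scaling (-0.02), and Stat3 in CD3_CD28 against CD3 with median-of-ratios scaling (0.16) and without the ribosomal RNA gene (0.01); the cause was not tested. The number of STAT genes called stayed within 1.5 times in every comparison. With no filter on low values, 11496 genes in all were called in CD3_CD28 against Unstimulated, in place of 7391, since more genes were tested. The deviations of same-numbered libraries correlated with r from -0.1 to 0.408 over the groups. A library correlated best with its own number in 16 of 36 matches. These values cannot decide whether the numbers pair the samples, since no label says what a number shares. With the replicate number as a block, 4 of the 6 genes were called in CD3 against Unstimulated, as without it, and the block changed no call of a STAT gene. With 3 libraries a group, the depth, 11.4 to 37.5 per library in units of 1e6 reads, gave each of the 6 genes at least 1024 estimated reads.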

Other observations

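Both chemokine receptor genes listed with STAT6 rose from CD3 to CD3_CD28. Ccr8, a receptor of TH2 and regulatory T cells, measured 1.91, 0.729 and 1.22 CPM in Unstimulated, 9.56, 9.64 and 6.25 in CD3, 82.0, 76.8 and 72.4 in CD3_CD28 and 79.1, 65.0 and 62.8 in CD3_CD28_ICOS, so that both costimulated groups lay above CD3. Ccr4 measured 106, 63.5 and 72.6 CPM in CD3_CD28 but 15.8, 29.2 and 20.6 in CD3_CD28_ICOS. Il24, a cytokine gene of the interleukin-10 family, measured 105, 20.9 and 43.7 CPM in the CD3_CD28 libraries, which differ widely among themselves, and at most 0.0759 CPM in the other 9. Socs5, a SOCS family member, was 20.6 ± 4.94 CPM (SD, n = 3) in CD3, 21.7 ± 2.11 in CD3_CD28 and 49.8 ± 5.52 in CD3_CD28_ICOS, the reverse of the order of Cish in the last 2 groups.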
